A study of Arabidopsis thaliana with 9 samples.

Results

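The genes described here are Arabidopsis thaliana genes known in the array annotation by a locus name alone that lay on opposite sides of the control at the 2 sampling times of a treatment with BrvC, a brevicompanine (a fungal alkaloid). A gene was taken when its mean log2 signal at 6 h and at 48 h differed from the control mean by at least 0.6 in opposite directions, which is at least 1.52-fold each way. Of 14745 locus-named genes, 156 met these sizes. At 6 h 65 of them were above control and at 48 h below it (up then down, 0.441% of locus-named genes), and 91 were below control at 6 h and above it at 48 h (down then up, 0.617%). The group means themselves chose the genes, so every level and difference below describes how they behave and is no test of whether they reverse.

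Leaves of ecotype Col-0, 30 days old, were cut from soil-grown plants and kept in the dark in MS medium, a plant salt solution, with 50 µM BrvC for 6 h (3 arrays) or 48 h (3 arrays), or with 0.05% DMSO, the solvent, as control (3 arrays). A sample pooled 10 to 15 detached leaves, and the replicates are called biological in the labels. How long the control leaves stood in the dark is not stated, so BrvC, time in the dark and time of day cannot be told apart in the differences from control. Each array gave a log2 signal per probe set, and a difference of 1 is a factor of 2 in signal.

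Detached leaves in the dark stop fixing carbon and turn to the breakdown of stored material, and many leaf transcripts follow light, sugar and the circadian clock. A transcript that leaves its control level early and comes out on the other side later combines an early and a late change of opposite direction. A locus name states only where a gene lies, as AT4G01150 lies on chromosome 4. The reference table listed all 65 up then down genes and 89 of the 91 down then up genes, each as protein-coding, and gave a functional name for 1 of them. This is AT4G01150, CURT1A (CURVATURE THYLAKOID 1A), a small thylakoid membrane protein that bends the membrane at the edges of grana stacks. The other genes are described by their values, with no role given.

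**Figure D1:**
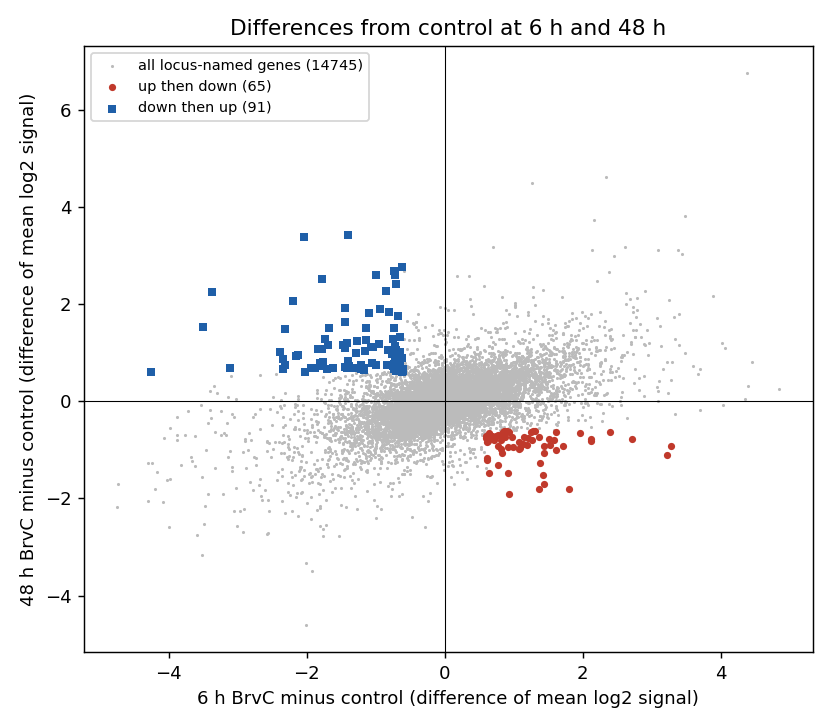
Difference of mean log2 signal from control at 6 h (x axis) against 48 h (y axis) for 14745 locus-named genes, 1 point per gene, with the 65 up then down genes as circles and the 91 down then up genes as squares. The coloured points lie in the upper left and lower right corners, at least 0.6 from both axes, and the down then up genes reach farther from them on both axes.

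The data hold a few facts that touch all these values. Array medians over all entries were 4.17 to 4.25 at 6 h, 4.00 to 4.10 at 48 h and 3.80 to 3.93 in control. The median difference of the 16550 named genes was nevertheless -0.10 at 6 h and -0.06 at 48 h, and after centring each array on its median over all entries it was -0.46 and -0.25. All 156 genes kept both signs under that centring, under renewed quantile normalization and after centring on the named genes. The sizes of the rule were still met under all 3 scalings by 33 of the 65 up then down genes and 54 of the 91 down then up genes. Of the leaf markers, 4 of 10 were measured, with a log2 summed level of 10.86 to 11.09 at 6 h and 9.44 to 9.97 at 48 h, against 10.93 to 11.57 in control. The sum hides a split at 6 h, where PSAN differed from control by -2.055 and RCA by -0.581, but PRK by 0.296 and PSBW by 0.089. At 48 h all 4 were lower, by -1.478, -1.422, -2.112 and -1.656 in the same order. The guard cell factor FAMA, 1 of 4 guard cell markers measured, had 6.82 to 7.04 at 6 h and 6.22 to 6.38 at 48 h, against 5.47 to 5.92 in control. The 2 measured root markers of 5 summed to 3.92 to 4.14 at 6 h and 4.05 to 4.60 at 48 h, against 3.87 to 4.09 in control, and the pollen marker VGD1 had 1.86 to 2.12 and 1.62 to 1.93, against 1.64 to 2.13 in control. Epidermis, phloem and xylem markers were not measured by probe sets listed for 1 gene. The part of the cell mixture in the results was not tested, and in pooled leaves fewer cells of a type and less RNA per cell cannot be told apart.

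Up then down genes had modest swings. Their median difference was 0.99 at 6 h and -0.80 at 48 h, and only 7 of 65 lay at least 2-fold away from control at both times. The 6 h difference was the larger one in 40 genes and the 48 h difference in 25, and in 38 the larger difference was at most 1.5 times the smaller. A difference of at least 2 on the log2 scale was reached by 6 genes at 6 h and by 0 of the 65 at 48 h. The median level was 6.33 at 6 h and 4.26 at 48 h, against 5.12 in control, over the same probe sets.

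Genes near the top of this direction had nearly even swings. AT3G06770 had 6.06, 5.97 and 6.12 at 6 h and 2.28, 2.53 and 2.53 at 48 h, against 4.68, 3.59 and 4.47 in control. Its control replicate 2 was low, yet all control arrays lay between the treated groups, and the mean was 3.49-fold higher at 6 h and 3.49-fold lower at 48 h (differences 1.80 and -1.80, SE 0.24, n = 3 per group). AT3G10720 had 5.79, 5.76 and 5.66 at 6 h and 2.61, 2.81 and 2.36 at 48 h, against 4.36, 4.27 and 4.28 in control, with differences of 1.44 and -1.71 (SE 0.17). Its control arrays were among the tightest of all these genes, with an SD of 0.05. AT4G16410 had 6.58, 6.20 and 6.65 at 6 h and 3.98, 3.88 and 3.58 at 48 h, against 4.85, 5.33 and 5.09 in control. Its differences were 1.39 and -1.28 (SE 0.20), and its annotated span overlaps a neighbouring gene, so its signal may include that gene's RNA.

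CURT1A (AT4G01150) was the gene of this direction with a functional name in the reference table. It had 9.16, 9.01 and 9.20 at 6 h and 6.19, 6.01 and 5.62 at 48 h, against 7.87, 7.98 and 7.39 in control. The 3 groups did not overlap, the mean was 2.59-fold higher at 6 h and 3.50-fold lower at 48 h (1.37 and -1.81, SE 0.20), and both means moved away from control by several times the SD of any group, the largest of which was 0.31. AT4G01130 lies next but 1 to it on the chromosome and had 6.32, 6.16 and 6.64 at 6 h and 3.13, 3.95 and 3.22 at 48 h, against 4.59, 5.01 and 5.25 in control (1.42 and -1.52, SE 0.25). The gene between them, AT4G01140, had -0.08 at 6 h and -0.22 at 48 h, so the stretch did not move as 1 block.

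**Figure D2:**
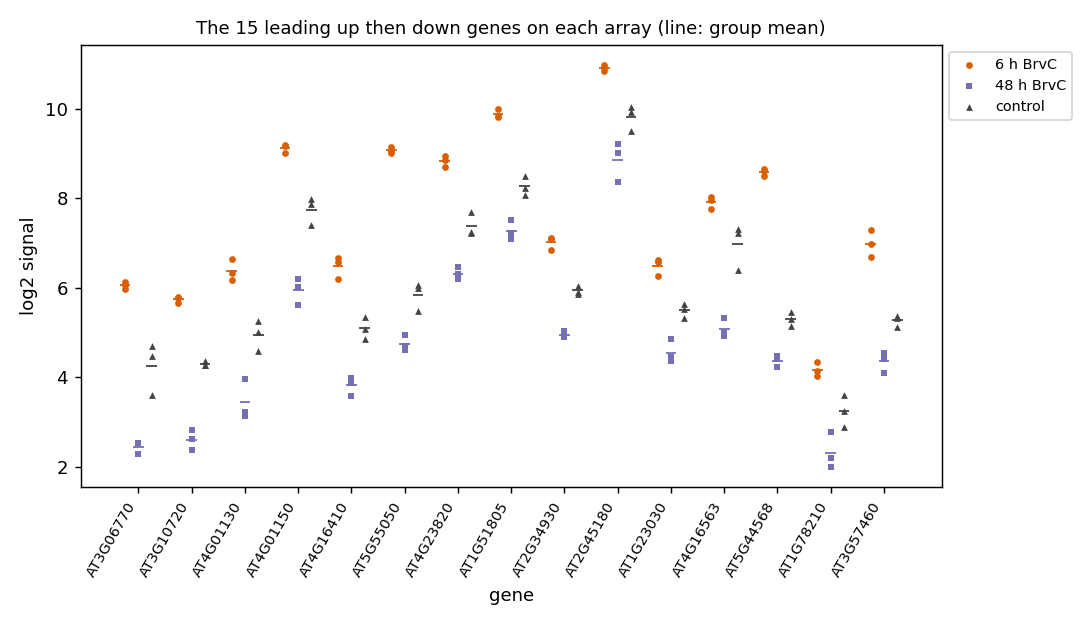
Log2 signal (y axis) of the 15 leading up then down genes (x axis) on every array, with 6 h as circles, 48 h as squares, control as triangles and a short line at each group mean. In every gene the control points lie between the 6 h points above and the 48 h points below. AT5G44568 and AT5G55050 stand out by the distance of their 6 h points from their control points.

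A second shape had a larger difference early than late. AT5G44568 had 8.49, 8.60 and 8.65 at 6 h and 4.48, 4.22 and 4.40 at 48 h, against 5.45, 5.30 and 5.14 in control. AT5G55050 had 9.14, 9.05 and 9.01 at 6 h and 4.69, 4.60 and 4.93 at 48 h, against 6.06, 5.48 and 5.99 in control. Both were more than 9-fold higher at 6 h (3.28, SE 0.16, and 3.22, SE 0.19) and about 2-fold lower at 48 h (-0.93 and -1.10), and these were the largest 6 h differences of the direction. AT3G57460 had 7.30, 6.99 and 6.68 at 6 h and 4.41, 4.09 and 4.55 at 48 h, against 5.33, 5.37 and 5.12 in control. AT1G51805 had 9.99, 9.83 and 9.82 at 6 h and 7.22, 7.09 and 7.51 at 48 h, against 8.24, 8.08 and 8.49 in control. These last genes differed by 1.72 and 1.61 at 6 h and by -0.92 and -1.0 at 48 h. AT4G23820 had 8.94, 8.84 and 8.70 at 6 h and 6.45, 6.31 and 6.19 at 48 h, against 7.69, 7.24 and 7.21 in control (1.44 and -1.07, SE 0.18). Its span also overlaps a neighbour, AT4G23840, which had 0.44 at 6 h and 0.36 at 48 h and so was not below control at 48 h.

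AT4G16563 showed the opposite weighting and the deepest 48 h difference of the 65 genes. It had 7.96, 8.04 and 7.75 at 6 h and 4.93, 4.98 and 5.31 at 48 h, against 7.31, 6.41 and 7.22 in control. It was thus 3.75-fold lower at 48 h (-1.91, SE 0.23) and 1.92-fold higher at 6 h (0.94), and its control replicate 2 was the low one.

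The other named genes of the direction moved by close to 2-fold each way. AT2G45180 had 10.98, 10.84 and 10.91 at 6 h and 9.21, 9.01 and 8.36 at 48 h, against 10.04, 9.92 and 9.50 in control (1.09 and -0.96, SE 0.23). AT2G34930 had 7.11, 6.84 and 7.09 at 6 h and 4.89, 5.04 and 4.92 at 48 h, against 5.87, 5.91 and 6.04 in control (1.08 and -0.99, SE 0.16). Within each group the arrays of AT2G34930 stayed close, with an SD of 0.15 at most. AT1G23030 had 6.58, 6.26 and 6.61 at 6 h and 4.44, 4.85 and 4.35 at 48 h, against 5.63, 5.51 and 5.33 in control. AT1G78210 had 4.13, 4.03 and 4.35 at 6 h and 2.0, 2.18 and 2.77 at 48 h, against 2.90, 3.60 and 3.25 in control. For AT1G78210 the gap between the highest 48 h array and the lowest control array was small, although the groups did not overlap.

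Further down the order lay 40 genes whose smaller difference was under 0.8. Large early changes were found there too, as in AT5G02540 (2.72 at 6 h and -0.77 at 48 h, SE 0.33) and AT3G48420 (2.40 and -0.63, SE 0.22). In AT5G02540 the 48 h arrays overlapped the control arrays. In AT3G48420 the highest 48 h array (2.87) lay only just below the lowest control array (2.91). Just inside the rule stood AT1G11860 (0.60 and -0.71), AT4G16140 (0.90 and -0.60) and AT1G04680 (1.28 and -0.61). Just outside it stood AT2G43030 (0.80 and -0.60), AT1G12990 (0.60 and -1.37) and AT4G17360 (0.60 and -0.78), which on the full scale fell short of 0.6 by a few thousandths.

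Down then up genes had wider swings. Their median difference was -1.16 at 6 h and 0.94 at 48 h, 25 of 91 lay at least 2-fold away from control at both times, and 22 reached 2 on the log2 scale at 1 time or more. The 6 h difference was the larger in 50 genes and the 48 h difference in 41. The median level was 3.59 at 6 h and 6.31 at 48 h, against 5.24 in control. At 48 h minus 6 h the genes differed by 1.22 to 5.61.

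**Figure D3:**
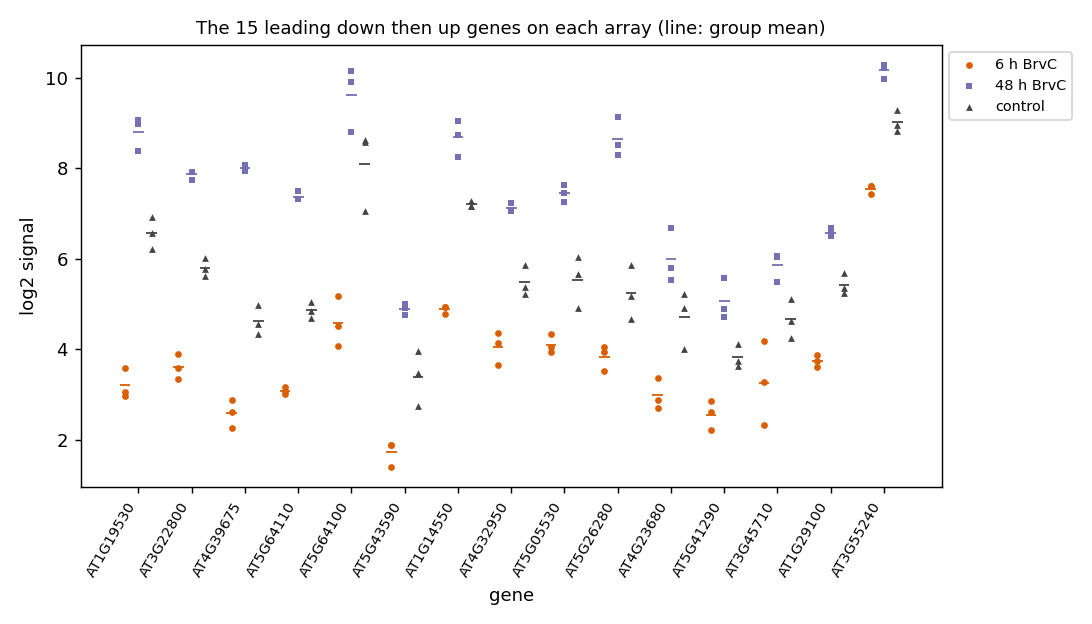
Log2 signal (y axis) of the 15 leading down then up genes (x axis) on every array, with 6 h as circles, 48 h as squares, control as triangles and a short line at each group mean. The 48 h points lie on top and the 6 h points at the bottom in every gene, and the control points of AT5G64100 are spread from 7.05 to 8.63.

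AT1G19530 led this direction. It had 3.05, 3.59 and 2.97 at 6 h and 8.99, 9.06 and 8.38 at 48 h, against 6.56, 6.92 and 6.22 in control. Its mean was 10.3-fold lower at 6 h and 4.73-fold higher at 48 h (-3.37 and 2.24, SE 0.25), and the span of 5.61 between the treated groups was the widest of all 156 genes. AT3G22800 had 3.90, 3.35 and 3.57 at 6 h and 7.93, 7.75 and 7.93 at 48 h, against 5.76, 5.62 and 6.03 in control. It was about 4-fold away from control at both times, with differences of -2.20 and 2.06 (SE 0.19) and no overlap between groups.

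Some genes had their larger difference at 48 h. AT4G39675 had 2.62, 2.26 and 2.87 at 6 h and 8.07, 7.99 and 7.95 at 48 h, against 4.55, 4.98 and 4.34 in control. AT5G26280 had 4.05, 3.51 and 3.95 at 6 h and 9.13, 8.51 and 8.30 at 48 h, against 5.17, 5.87 and 4.67 in control. Both were more than 10-fold higher than control at 48 h, by 3.38 (SE 0.21) and 3.41 (SE 0.29), and at 6 h they were lower by differences of -2.04 and -1.40. AT5G05530 had 4.05, 3.93 and 4.33 at 6 h and 7.64, 7.47 and 7.26 at 48 h, against 5.67, 6.05 and 4.90 in control (-1.44 and 1.92, SE 0.25). AT4G32950 had 4.14, 4.35 and 3.66 at 6 h and 7.05, 7.23 and 7.08 at 48 h, against 5.38, 5.86 and 5.22 in control (-1.44 and 1.63, SE 0.22). Control replicate 2 was the highest control array in each of these 4 genes.

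AT5G64110 and AT5G64100 are direct neighbours on chromosome 5 and had different weights. AT5G64110 had 3.02, 3.08 and 3.16 at 6 h and 7.32, 7.33 and 7.49 at 48 h, against 4.69, 5.04 and 4.84 in control. Its groups were tight and its larger difference was the late one (-1.77 and 2.52, SE 0.16). AT5G64100 had 5.18, 4.51 and 4.07 at 6 h and 10.15, 9.92 and 8.81 at 48 h, against 8.63, 8.59 and 7.05 in control. It was 11.3-fold lower at 6 h (-3.50) and 2.90-fold higher at 48 h (1.54), with a larger SE of 0.43. Replicate 3 was the lowest array in each group of AT5G64100, and its 48 h minus control differences within replicate numbers were 1.52, 1.33 and 1.76.

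AT1G14550 had 4.78, 4.94 and 4.94 at 6 h and 9.06, 8.74 and 8.26 at 48 h, against 7.18, 7.28 and 7.16 in control. Its early difference was the larger one (-2.32 and 1.48, SE 0.20). AT1G29100 had 3.60, 3.74 and 3.86 at 6 h and 6.67, 6.56 and 6.50 at 48 h, against 5.25, 5.68 and 5.36 in control (-1.69 and 1.15, SE 0.17). AT3G55240 had 7.42, 7.62 and 7.61 at 6 h and 10.22, 10.29 and 9.99 at 48 h, against 8.82, 8.95 and 9.29 in control (-1.47 and 1.15, SE 0.18). These genes combined a clear separation of groups with SDs of at most 0.24, except for 0.40 at 48 h in AT1G14550.

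Other genes of the leading 15 had SEs of 0.24 to 0.37. AT5G43590 had 1.87, 1.88 and 1.40 at 6 h and 4.76, 4.90 and 5.0 at 48 h, against 3.46, 2.74 and 3.96 in control (-1.67 and 1.5, SE 0.26). AT4G23680 had 2.88, 2.70 and 3.37 at 6 h and 5.80, 5.52 and 6.67 at 48 h, against 4.00, 4.91 and 5.22 in control (-1.73 and 1.28, SE 0.34). In AT4G23680 replicate 3 was the highest array of every group. AT5G41290 had 2.84, 2.61 and 2.21 at 6 h and 4.71, 4.88 and 5.57 at 48 h, against 4.11, 3.64 and 3.73 in control (-1.27 and 1.23, SE 0.24). AT3G45710 had 3.27, 2.32 and 4.18 at 6 h and 5.50, 6.04 and 6.05 at 48 h, against 4.25, 4.63 and 5.11 in control (-1.41 and 1.20, SE 0.37). The 6 h arrays of AT3G45710 had an SD of 0.93, the largest 6 h SD of the 156 genes, and the highest of them came within 0.1 of the lowest control array.

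Other down then up genes paired a large change at 1 time with a small one at the other. AT1G62760 had the largest 6 h difference of all 156 genes, -4.25 (SE 0.27), but 0.61 at 48 h, just inside the rule, where its 48 h and control arrays overlapped. AT5G02580 had -3.11 at 6 h and 0.69 at 48 h, also with overlap at 48 h. On the late side AT1G33910 had 2.76 at 48 h and -0.62 at 6 h, and AT4G12735 had 2.67 and -0.74. In these late genes the 6 h arrays overlapped the control arrays. Next to AT1G62760 at the threshold stood AT5G42850 (-0.60 and 0.62) and AT3G10680 (-2.02 and 0.61), and outside it AT1G35190 (-0.69 and 0.60), AT5G16120 (-0.87 and 0.60) and AT5G42200 (-0.60 and 0.71).

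Array by array, the median of the genes lay on the same side of control on every array of a treated group. In up then down genes the median distance from the control mean was 0.97 to 1.12 on the 6 h arrays and -0.90 to -0.85 on the 48 h arrays, against -0.04 to 0.04 on the control arrays. In down then up genes it was -1.21 to -1.13 on the 6 h arrays and 0.89, 0.99 and 1.14 on the 48 h arrays, against -0.19, 0.01 and 0.20 on control replicates 1, 2 and 3. Of the 91 down then up genes, 71 lay below their control mean on control replicate 1 and 24 on control replicate 3, so control replicate 1 stood nearer the 6 h arrays and control replicate 3 nearer the 48 h arrays.

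The median SD of the down then up genes was 0.23 at 6 h and 0.32 at 48 h, against 0.34 in control, and over all locus-named genes these medians were 0.17, 0.21 and 0.26. AT5G49200, chosen after its values were seen, had the largest control SD of the 156 genes, with 2.83, 3.02 and 2.81 at 6 h and 4.34, 5.08 and 6.74 at 48 h, against 3.91, 3.44 and 6.66 in control. Control replicate 3 lay level with the highest 48 h array, and the mean differences were -1.78 and 0.72 (SE 0.70). AT2G27140, also chosen afterwards, had 4.96, 5.16 and 5.13 at 6 h and 7.71, 7.89 and 8.87 at 48 h, against 6.12, 7.00 and 8.57 in control. In both genes replicate 3 was the highest of the 48 h and of the control arrays.

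**Figure D4:**
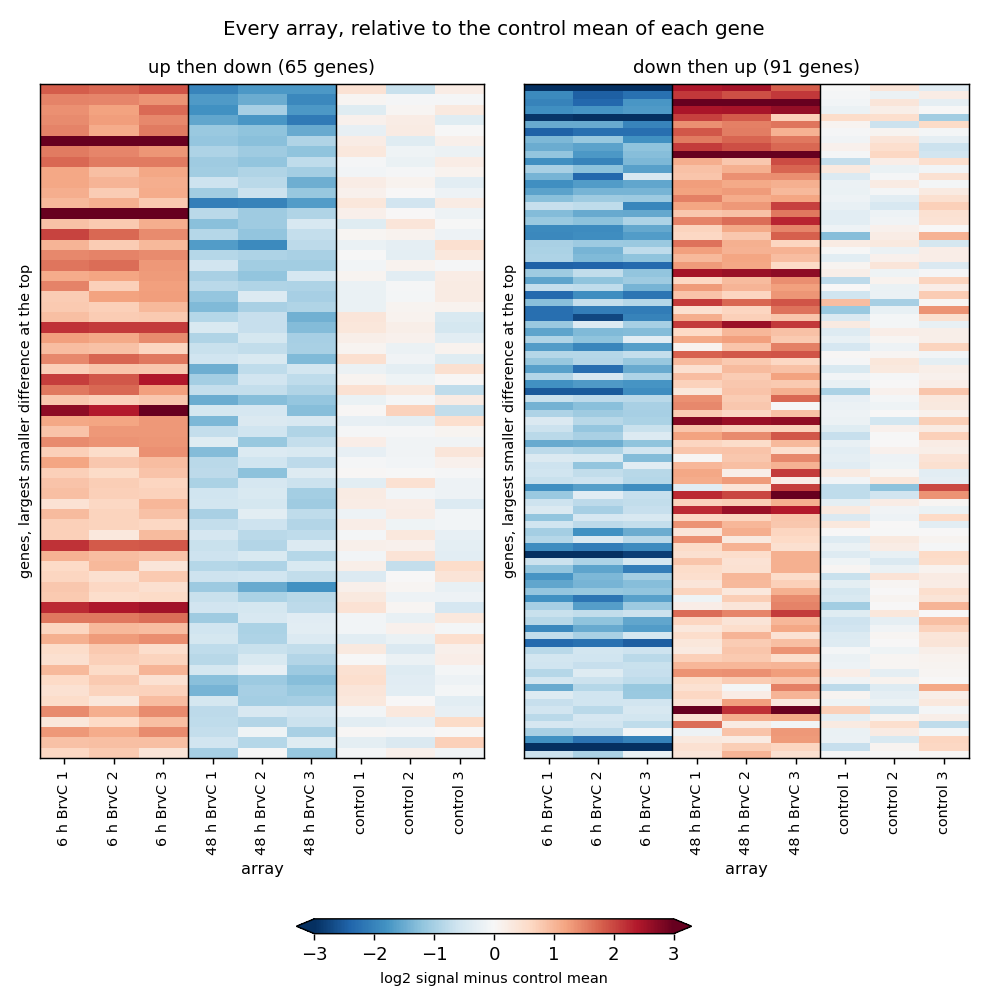
Log2 signal minus the control mean of the gene (colour, clipped at 3 either way) for every up then down gene (left, 65 rows) and down then up gene (right, 91 rows) on 9 arrays (columns: 6 h, 48 h, control). The 6 h and 48 h blocks have opposite colours, apart from 3, 1 and 2 down then up genes on 48 h replicates 1, 2 and 3 that lie at or below the control mean, and in the right panel control replicate 1 is mostly pale blue and control replicate 3 mostly pale red.

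How far single differences stood out from array spread was described with limma over all 16550 genes. Of the 65 up then down genes, 61 were called higher at 6 h (14.2% of all genes were) and 44 lower at 48 h (5.22% of all genes), at a Benjamini-Hochberg adjusted p of 0.05. Both calls were made for 43 of them, against 0.399% of all genes, and 3 had neither. Of the 91 down then up genes, 72 were called lower at 6 h (13.2% of all genes), 56 higher at 48 h (5.43%) and 50 at both times (0.363%), and 13 had neither call. At 48 h against 6 h all 65 were called lower (10.7% of all genes) and all 91 higher (9.62%). Nothing is read from these shares, since the rule selected on the same differences. In a refit without control replicate 2 the count of up then down genes called at both times was 25, and the share of all genes in that refit is not given here.

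By the arrays alone, 62 of the 65 up then down genes had all 6 h arrays above all control arrays (18.7% of all genes) and 58 had all 48 h arrays below them (13.5%), with 56 doing both (1.06%). Of the 91 down then up genes, 82 lay wholly below control at 6 h (21.6%), 65 wholly above it at 48 h (11.6%), and 59 did both (1.21%). When 48 h and control arrays of the same number were compared, all 3 differences were positive in 87 of the 91 down then up genes (22.1% of all genes) and negative in 64 of the 65 up then down genes (27.4%).

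Leaving out 1 array at a time changed which genes met the rule. The sizes were still met, whichever array was left out, by 30 of the 65 up then down genes and 38 of the 91 down then up genes, including all 30 leading genes, 15 of each direction. AT5G49200 and AT2G27140 were not among them. Among down then up genes 50 dropped out without at least 1 control array, 29 without at least 1 of the 48 h arrays and 17 without at least 1 of the 6 h arrays. Among up then down genes these numbers were 32, 22 and 13. Without control replicate 1, 56 of the 91 down then up genes still met the rule, the fewest for any array. For the 65 up then down genes the fewest were 48 without control replicate 3, then 49 without control replicate 2 and 53 without control replicate 1. Under the 3 scalings and each of the 9 omissions together, 22 up then down and 34 down then up genes met the sizes throughout. These included all 15 leading down then up genes and 13 of the 15 leading up then down genes. The others were AT4G16563 and AT1G78210, whose 6 h differences were 0.58 and 0.56 after centring on all entries, against 0.94 and 0.92 as deposited. That centring also moved the 6 h differences of AT1G23030 to 0.63 and of AT2G34930 to 0.72, against 0.99 and 1.08 as deposited, still inside the rule.

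**Figure D5:**
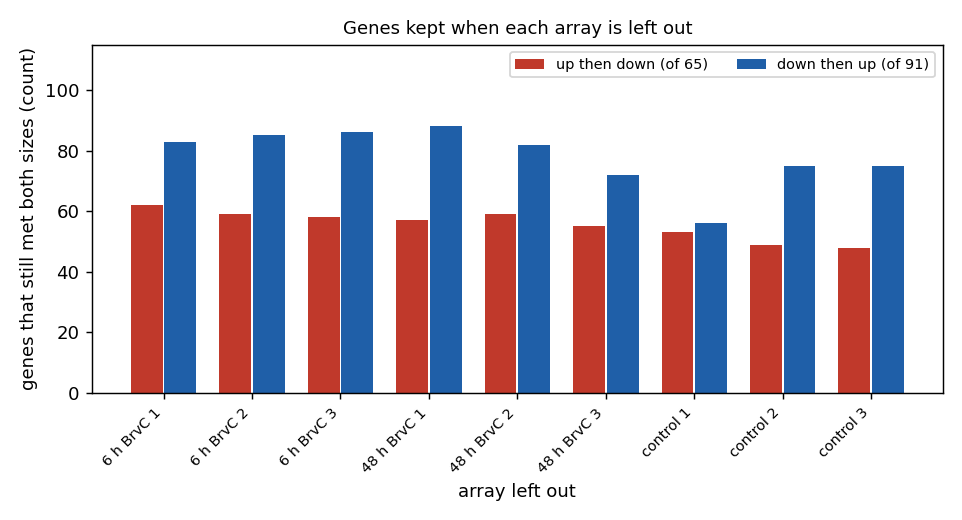
Number of the 65 up then down and 91 down then up genes (y axis) that still met both sizes when the array named on the x axis was left out. The up then down bars are shortest, at 48 to 53, for the control arrays, and the shortest down then up bar, 56, belongs to control replicate 1.

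The genes lay on all 5 chromosomes. Up then down genes numbered 13, 9, 15, 12 and 16 on chromosomes 1 to 5, and down then up genes 24, 14, 15, 13 and 25, where chromosomes 1 to 5 held 26.2%, 15.3%, 20.5%, 14.7% and 23.3% of all locus-named genes. Among direct protein-coding neighbours, 3 pairs had both genes among the 156, each pair with 1 direction. They were AT5G64100 with AT5G64110, AT2G28960 with AT2G28970, and AT5G54710 with AT5G54720. Counted from each gene, 2 of 76 measured neighbours of up then down genes and 4 of 110 of down then up genes shared the direction. Of all locus-named genes, 0.441% and 0.617% had these directions, and the difference was not tested. Many neighbours were not measured and could not count. Further pairs lay within 5 steps along the order of protein-coding genes. AT2G28970 had 2.55, 2.88 and 2.45 at 6 h and 6.12, 6.21 and 6.32 at 48 h, against 3.79, 3.50 and 3.58 in control. AT2G28960 had 2.76, 3.30 and 3.17 at 6 h and 6.11, 5.74 and 5.91 at 48 h, against 4.94, 3.03 and 4.07 in control. The late level of both stood well above all other arrays, but the 6 h arrays of AT2G28960 overlapped its scattered controls.

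AT5G54710 had 9.31, 8.97 and 9.01 at 6 h and 6.48, 6.26 and 6.74 at 48 h, against 7.30, 7.27 and 6.86 in control. AT5G54720 had 4.81, 5.25 and 5.30 at 6 h and 2.89, 3.64 and 3.06 at 48 h, against 3.85, 4.00 and 4.29 in control. The pair shared its direction, with 1.96 and 1.07 at 6 h and -0.65 and -0.85 at 48 h. Of 76 measured direct neighbours of up then down genes 14 had the same signs at both times, and of 110 measured neighbours of down then up genes 32 did. The share of all genes with these signs is not given here, so nothing is read from these counts. Neighbouring copies of a gene can share probes, and 16 up then down and 14 down then up genes overlap an annotated neighbour, so values in these places are uncertain.

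AT5G44568, AT5G44574 and AT5G44580, all up then down, lie within 7 steps along the order of protein-coding genes. AT5G44574 had 4.83, 4.97 and 4.47 at 6 h and 2.52, 2.52 and 2.35 at 48 h, against 3.70, 3.56 and 2.48 in control, where control replicate 3 was level with the 48 h arrays. AT5G44580 had 9.45, 9.26 and 9.13 at 6 h and 7.54, 7.13 and 6.83 at 48 h, against 8.79, 8.71 and 8.42 in control. The early difference thus ran from 0.64 in AT5G44580 over 1.51 in AT5G44574 to 3.28 in AT5G44568. Of genes beside them, AT5G44575 had 1.94 at 6 h and -0.39 at 48 h, and AT5G44572, which overlaps AT5G44574, had -0.75 and -1.69.

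Genes that carry a symbol and met the same sizes are given for comparison, and no link in function to the locus-named genes was tested. There were 30 of 1805, with 22 up then down (1.22% of these genes) and 8 down then up (0.443%). The 5 leading up then down genes among them were the xyloglucan-modifying wall enzyme gene XTH33 (1.89 at 6 h and -1.44 at 48 h), the transcription factor gene BZIP61, the wall-loosening expansin gene EXPA8 (2.03 and -1.24), TBL37 of the TRICHOME BIREFRINGENCE-LIKE family, and CKS, whose enzyme activates the pectin sugar KDO. Lower in the order of the 22 stood genes of plastid proteins, among them NdhL (2.48 and -0.82), ndhF (0.81 and -1.25), psbZ (0.95 and -0.72) and SBPASE (1.58 and -0.83). A further expansin gene, EXPA16 (0.70 and -0.66), also lay there, so the 5 leading genes do not stand for all 22. The 5 leading down then up genes were the peroxidase genes PRX52 (-1.43 at 6 h and 1.52 at 48 h) and Prx37, the purple acid phosphatase gene PAP20, AtS40-3 of the S40 family, and OSM34, an osmotin-like gene with -4.93 and 0.65. Of the clock, dark-induced and senescence lists, 1 of 14, 0 of 6 and 1 of 6 genes were measured by a probe set of their own. The clock gene GI had -0.33 at 6 h, not past the test, and 1.06 at 48 h, where limma called it higher, and the sugar transporter gene SWEET15 (SAG29) had -0.63 and 0.18, with a call at 6 h alone.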

How the data were processed

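The authors deposited 1 table of log2 signals with 38408 entries and 9 arrays. Per the submitters' processing notes oligo, RMA and limma were used; versions, genome build and array annotation are not given in the sources used here. RMA corrects background, normalizes by quantiles and compresses differences of low signals. Values from 0.298 to 13.9 fit a log2 scale.

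A probe table paired 16722 entries with 1 gene; entries with several genes (759) or none listed (20927) were left out. The entry with the highest mean stood for each of 16550 genes, without a filter on level. Names were checked against the RefSeq table of assembly TAIR10.1, which also gave neighbours. No pair of arrays was identical. The number of arrays limits the precision.

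Group means gave the differences. limma 3.58.1 in R 4.3.3 (lmFit, eBayes, 1 mean per group, 9 arrays) gave SEs and Benjamini-Hochberg adjusted p-values over 16550 genes, two-sided, and was tested on simulated data. A p weighs a difference of group means against the spread between these pooled samples. Deviations of same-numbered arrays correlated at 0.302, 0.242 and 0.539 between 48 h and control, which links these groups by replicate number. They correlated at 0.034, -0.032 and 0.012 between 6 h and control, and at 0.102, -0.051 and -0.012 between 48 h and 6 h. The SEs and calls of the main fit do not use this link, and fits with a replicate block are given below. The sample titles name no run or batch, so a separate run of the 6 h arrays cannot be told apart from the 6 h differences.

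The members and lists were chosen with earlier results of these data known. Named were, in each direction, the 15 genes with the largest smaller difference, genes of largest single difference, the 3 nearest the threshold on each side, neighbours, 5 genes with a symbol by the same rank, and list members. Some lower-ranked genes with a symbol were named after their values were seen. Promoter motifs planned for description were not analysed here.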

Additional observations from a re-analysis of the deposited data

Results flagged for a closer look

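In 56 up then down genes every 6 h array lay above every control array and every 48 h array below, as in 1.06% of all 16550 genes. In 59 down then up genes the reverse held, as in 1.21% of all genes. These genes are listed because their arrays moved in opposite directions from the same controls at the 2 times, which is the property the rule selected, so nothing is read from the counts. The limma comparison of 48 h with 6 h, given above, used the same differences as the rule, and no test independent of the rule was made. Both times share the 3 control arrays.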

How the results depend on the processing

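The counts depended most on the size asked for. With at least 0.4 at both times, 165 locus-named genes were up then down and 212 down then up; with 0.8 there were 25 and 37, and with 1 there were 7 and 25. Asking for arrays that do not overlap control at either time left 56 and 59. Centring on all entries gave 57 and 83, with 34 and 54 of the original genes among them. Renewed quantile normalization gave 64 and 83 (45 and 65 of the original), group medians 60 and 91 (45 and 67), the mean of all entries of a gene 65 and 91, genes of at least median level 55 and 70, and centring on the named genes, added after the data were seen, 56 and 99 (56 and 91).

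Without 1 array the counts ran from 56 to 71 for up then down and from 70 to 108 for down then up. The genes called at both times ran from 25 to 41 (up then down) and 34 to 56 (down then up) without 1 array. With the replicate number as a block they were 54 and 67, against 43 and 50 without it. A block in the control and 48 h arrays alone, added after the data were seen, gave 51 and 68. Shares of all genes called at both times in these refits are not given here, so the shifts are not read as a result about the members. Fits of only the 2 groups compared gave 31 and 40 genes called at both times. Of all these fits, only the one without control replicate 2 moved a count by over 1.5 times, to 25 up then down genes. Of 720 alternative values of the 30 leading genes, 0 changed sign and 48 moved by more than the SD of the gene, 28 of them after centring on all entries. The 3 arrays per group and the low signal of dim genes limit what differences near 0.6 can show.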
